A study of Homo sapiens with 12 samples.

Results

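Pre-mRNA splicing factors of the serine/arginine-rich (SR) and heterogeneous nuclear ribonucleoprotein (hnRNP) families were examined in parental and oxamate-resistant MIAPaCa2 cells. The 44 genes were taken by symbol from the 26475 gene symbols measured: 12 SR proteins named SRSF with a number, 4 SR-related proteins (TRA2A, TRA2B, SRRM1 and SRRM2), 25 genes whose symbol begins with HNRNP, pseudogenes left out, and the 3 polypyrimidine tract-binding proteins PTBP1, PTBP2 and PTBP3. MIAPaCa2 is an established pancreatic ductal adenocarcinoma cell line, and oxamate is an inhibitor of lactate dehydrogenase A (LDHA), the enzyme that turns pyruvate into lactate. The resistant cells were a polyclonal population that had survived 10 mM sodium oxamate for 4 weeks. Parental and resistant cells were each left with vehicle (untreated in the sample labels) or given oxamate, in 3 libraries per group and 12 in all, and the dose and time of that last treatment are not given in the sources used here. Both lines shared the same origin and the same growth medium, and no group carried an engineered gene change. The measurements are poly(A) RNA levels of whole genes in bulk cultures, in which fewer cells with a transcript and less transcript per cell cannot be told apart, and the splicing of target genes was not measured.

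SR proteins bind exonic enhancer sequences and recruit the splicing machinery to nearby splice sites, whereas many hnRNPs and the polypyrimidine tract-binding proteins bind silencer sequences and keep exons out of the mature transcript. Both families also act in mRNA export, stability and translation, and many of their own genes carry exons or introns that, when retained, send the transcript to nonsense-mediated decay, so that the proteins limit their own mRNA. SR proteins are moved between nuclear speckles and transcription sites by kinases of the SRPK, CLK and DYRK families.

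Library totals ran from 46698729 to 114222169 expected counts, so that 3 counts corresponded to between 0.0283 and 0.0581 CPM (the usual depth-scaled count, here on TMM-scaled library sizes), a floor that covers counting error only. KRT8, KRT18 and VIM, fixed as markers of the line, were present, CDKN2A, CDKN2B and CDH1 had at most 2 counts in any library, and the summed level of 7 markers of blood, endothelial and fibroblast cells lay between 0.517 and 1.04 CPM. The third replicates of oxamate-treated parental cells and of vehicle-treated resistant cells stood apart from the other replicates of their groups in nuclear-retained RNA, with MALAT1 at 596 against 289 and 281 CPM and at 597 against 273 and 244 CPM, so results that rest on them are given without both as well. The oxamate-treated resistant libraries read 577, 609 and 742 CPM. The 2 libraries called rich in nuclear RNA below are thus those that differ from their own group, and not the only rich ones. Leaving them out widened the MALAT1 difference between vehicle and oxamate in resistant cells and did not even out nuclear RNA between the groups. Of the 44 genes, 40 passed the filter on low counts and 4 did not: HNRNPCL1, HNRNPCL2, HNRNPCL3 and HNRNPCL4, relatives of HNRNPC, which reached at most 6.01, 4, 0 and 2 expected counts in a library. The 44 genes together held between 1.11% and 1.23% of all counts in every library. Levels per kb of each gene's principal transcript in GENCODE release 29 differed widely in vehicle-treated parental cells, from HNRNPC at 609 CPM per kb and HNRNPA2B1 at 495 CPM per kb down to PTBP2 at 1.79 CPM per kb, and the SR protein SRSF12 was measured on only 2 to 21 counts per library.

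The first comparison was between the resistant and the parental line with vehicle in both. With TMM scaling most of these splicing factors were lower in resistant cells, whereas 3 SR proteins, SRSF5, SRSF6 and SRSF8, were among the 5 that were higher. A gene was called when its Benjamini-Hochberg adjusted p in edgeR's quasi-likelihood test was under 0.05. Of the 40 genes tested, 5 were called higher and 28 lower, against 38.4% of all 14582 genes called higher and 37.3% called lower (75.7% in either direction). Their median log2 fold change was -0.21, against 0.03 over all genes tested, and 32 of the 40 lay below the median of all genes. After TMM scaling the hnRNPs leaned to one side, with 18 of 21 called lower and 1 higher, and the SR proteins were divided, with 6 of 12 called lower and 3 higher. The direction of the smaller differences depended on how the libraries were scaled: with the library size alone the median of all genes moved up by 0.22 on the log2 scale and 16 of the 40 were called higher and 14 lower, against 58.6% and 19% of all genes. Of the 21 hnRNPs 9 were then called higher and 6 lower, and of the 12 SR proteins 4 higher and 5 lower. Under all 4 scalings tried, 5 remained higher and 14 remained lower, the latter being HNRNPA2B1, HNRNPA3, HNRNPC, HNRNPF, HNRNPL, HNRNPR, PTBP1, SRRM1, SRRM2, SRSF3, SRSF4, SRSF7, SRSF9 and SRSF11. By the study's threshold, an unadjusted p under 0.05 with a fold change over 1.5, 4 were higher and 5 lower, against 17.2% and 6.14% of all genes (23.4% in either direction). The replicates of the lines did not overlap in 32 of the 40 genes, against 77.6% of all genes.

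SRSF5, a mid-sized SR protein also known as SRp40, showed the largest increase of the 40. Its level was 47.7, 50.8 and 46.1 CPM in vehicle-treated parental cells, 40.4, 38.6 and 66.2 in oxamate-treated parental cells, 111, 108 and 102 in vehicle-treated resistant cells and 136, 127 and 128 in oxamate-treated resistant cells. Every resistant library lay above every parental library, and the highest parental value was that of the third oxamate replicate. The difference with vehicle was 1.15 ± 0.13 (log2 fold change ± SE, n = 3 against 3; adjusted p = 7.5e-07), a 2.22-fold higher level. SRSF6, known as SRp55, stood at 37.7, 40.1 and 39.7 CPM in vehicle-treated parental cells, 38.4, 39.1 and 49.4 in oxamate-treated parental cells, 64.0, 62.1 and 79.8 in vehicle-treated resistant cells and 93.9, 87.7 and 96.7 in oxamate-treated resistant cells. Its replicates did not overlap between the lines either, with a log2 fold change of 0.81 ± 0.09, adjusted p = 6e-07. SRSF8, which arose as a retrocopy of SRSF2, read 11.6, 11.4 and 11.1 CPM in vehicle-treated parental and 17.6, 18.4 and 17.9 CPM in vehicle-treated resistant cells (log2 fold change 0.66 ± 0.042, adjusted p = 8.7e-10), so that its groups were narrow and separate. The coding sequences of SRSF2 and SRSF8 were 64.8% identical with no identical run over 34 bases, and SRSF2 itself did not pass the test, with 61.1, 62.2 and 61.2 CPM in parental and 58.5, 58.0 and 73.3 CPM in resistant cells (log2 fold change 0.04 ± 0.1, adjusted p = 0.73).

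The largest decreases were also among SR proteins. SRSF11, a nuclear speckle protein known as p54, was at 148, 148 and 152 CPM in vehicle-treated parental cells, 183, 185 and 181 in oxamate-treated parental cells, 82.9, 81.9 and 90.2 in vehicle-treated resistant cells and 88.6, 86.5 and 91.5 in oxamate-treated resistant cells. Its resistant libraries were all below its parental libraries, with a log2 fold change of -0.81 ± 0.033, adjusted p = 4.1e-12 under vehicle. SRSF4, known as SRp75, was at 325, 327 and 317 CPM in vehicle-treated parental cells, 328, 328 and 325 in oxamate-treated parental cells, 191, 187 and 187 in vehicle-treated resistant cells and 170.0, 165 and 172 in oxamate-treated resistant cells, and within each group its libraries lay close together. It was 1.72-fold lower in resistant cells (log2 fold change -0.78 ± 0.024, adjusted p = 1.5e-13). SRSF7, a zinc-knuckle SR protein that also serves as an adapter for mRNA export, was at 117, 112 and 112 CPM in vehicle-treated parental cells, 81.6, 78.1 and 78.4 in oxamate-treated parental cells, 68.3, 67.7 and 69.1 in vehicle-treated resistant cells and 68.4, 66.4 and 70.2 in oxamate-treated resistant cells. The parental vehicle group was the highest, and the log2 fold change between the lines was -0.73 ± 0.028, adjusted p = 2.3e-12. SRSF9 (log2 fold change -0.48), SRSF3 (-0.32) and SRSF10 (-0.23) were the other SR proteins called lower, and SRSF1 and SRSF12 did not pass the test. The SRSF1 difference was 0.15, and it was called higher without the 2 libraries rich in nuclear RNA (0.10, adjusted p = 0.0070), without parental oxamate replicate 3 alone (0.14), on only the samples compared (0.16) and with the library size alone (0.37). SRSF3, the smallest SR protein, read 158, 161 and 161 CPM in parental and 125, 128 and 131 CPM in resistant cells under vehicle.

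**Figure D1:**
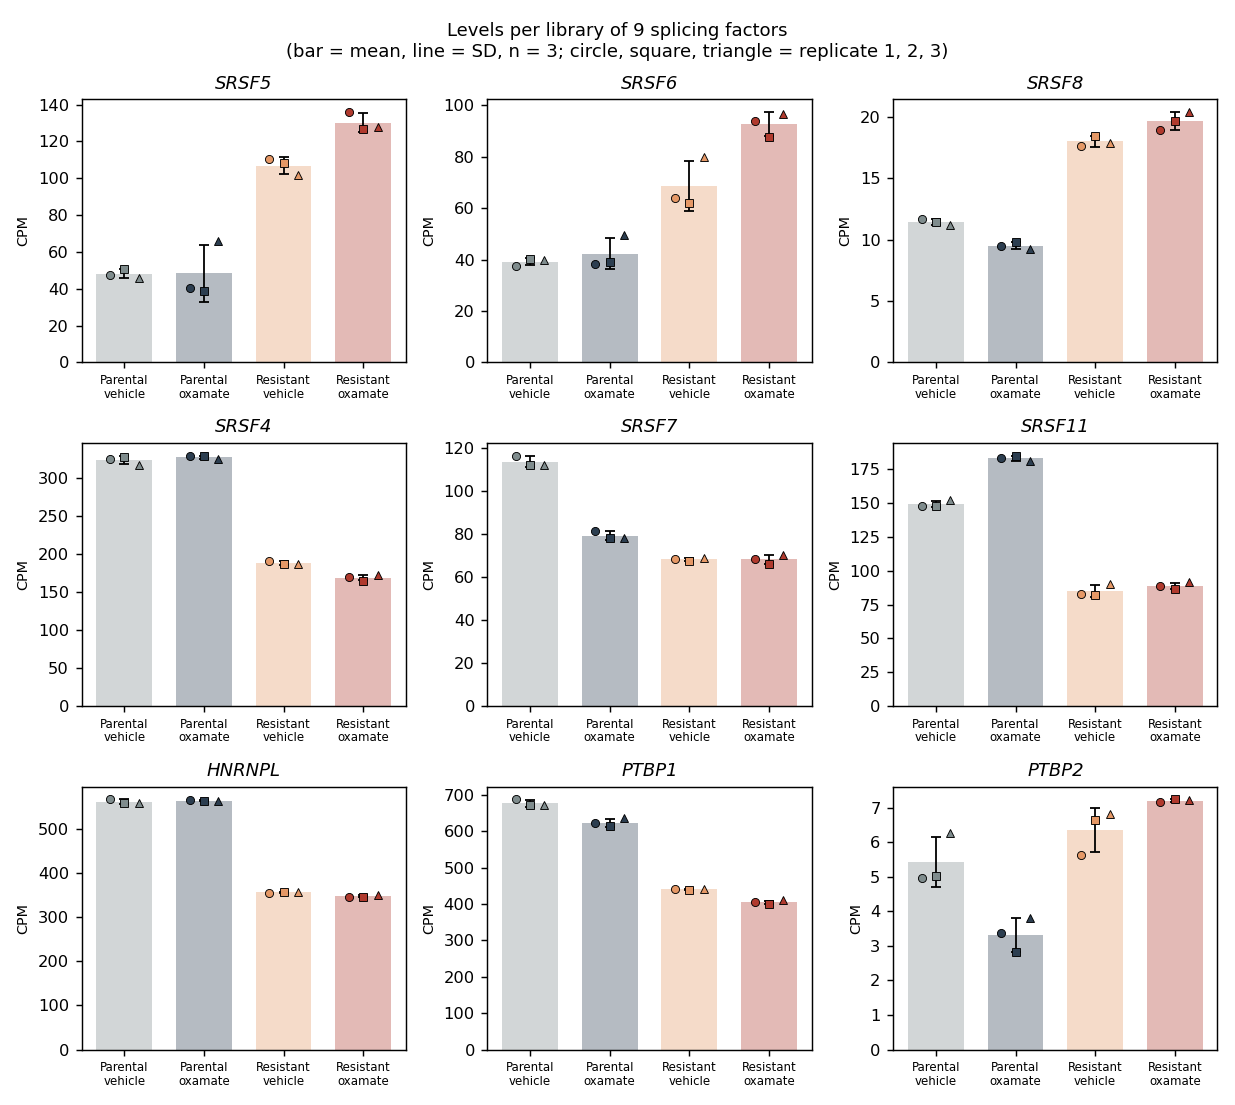
Level of 9 splicing factors in each of the 12 libraries (y axis, CPM; bars, mean; lines, SD; symbols, replicates), by group on the x axis. SRSF5, SRSF6 and SRSF8 are higher in both resistant groups, SRSF4, SRSF11, HNRNPL and PTBP1 are lower in both, SRSF7 is highest with vehicle in parental cells and PTBP2 is lowest with oxamate in parental cells.

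The ratio of the levels of a pair of genes within a library does not depend on scaling. SRSF4 had between 6.58 and 8.62 times the CPM of SRSF6 in the 6 parental libraries and between 1.78 and 3.00 times in the 6 resistant libraries. For SRSF4 and SRSF5 the ratio was between 4.91 and 8.52 in parental and between 1.25 and 1.83 in resistant libraries. These ratios are of counts not divided by length, so they compare libraries and not the abundance of the genes.

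The promoters of these genes are shown because members of one family moved in opposite directions, and the windows let the sequence upstream of each start be compared. Each is the 250 bases before the annotated transcript start, from RefSeq (GRCh38.p14), written 5′ to 3′ on the strand of the gene, for the genes SRSF4 (chr1:29147743-29181900), SRSF5 (chr14:69767142-69772005), SRSF6 (chr20:43457896-43464243) and SRSF7 (chr2:38743599-38751494). Capitals mark matches on either strand to a GC box, searched as GGGCGG, and to an ETS-type site, searched as CCGGAAGT. Also looked for were a CAAT box, whose letters were CCAAT, and an E-box, which was searched for with CACGTG. The TATA box was taken as an exact match to TATAAA, and a cAMP response element as an exact match to TGACGTCA. Matches of different motifs did not overlap in these windows.
SRSF4, chr1:29181901-29182150, minus strand: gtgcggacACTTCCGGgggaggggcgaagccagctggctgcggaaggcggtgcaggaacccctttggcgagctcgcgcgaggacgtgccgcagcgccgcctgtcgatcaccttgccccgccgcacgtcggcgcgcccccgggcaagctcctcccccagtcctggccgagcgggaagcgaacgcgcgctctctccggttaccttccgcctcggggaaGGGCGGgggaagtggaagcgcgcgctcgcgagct
SRSF5, chr14:69766892-69767141, plus strand: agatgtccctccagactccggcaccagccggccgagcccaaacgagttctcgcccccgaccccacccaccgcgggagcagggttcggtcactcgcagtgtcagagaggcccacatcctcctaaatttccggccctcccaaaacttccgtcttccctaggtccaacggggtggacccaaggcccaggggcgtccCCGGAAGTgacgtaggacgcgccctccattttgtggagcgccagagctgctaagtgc
SRSF6, chr20:43457646-43457895, plus strand: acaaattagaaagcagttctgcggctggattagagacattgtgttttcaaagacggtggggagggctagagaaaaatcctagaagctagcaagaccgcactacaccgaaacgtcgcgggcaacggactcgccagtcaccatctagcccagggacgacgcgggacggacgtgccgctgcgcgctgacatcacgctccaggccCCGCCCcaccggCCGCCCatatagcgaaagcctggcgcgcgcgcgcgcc
SRSF7, chr2:38751495-38751744, minus strand: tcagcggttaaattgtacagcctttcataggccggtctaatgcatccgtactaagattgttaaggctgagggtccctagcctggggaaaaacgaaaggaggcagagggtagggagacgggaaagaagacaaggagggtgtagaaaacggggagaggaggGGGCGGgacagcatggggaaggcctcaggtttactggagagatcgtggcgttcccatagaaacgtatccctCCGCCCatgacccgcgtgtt
The letters of the ETS-type site were found in the windows of SRSF4, which was lower in resistant cells, and of SRSF5, which was higher, and in 3.42% of the 35116 promoter windows of all genes. Those of the GC box were found once in SRSF4 and at 2 positions each in SRSF6 and SRSF7, against 42.6% of all windows with at least 1 match, and none of the 4 windows held a CAAT box, E-box, TATA box or cAMP response element. Over the 57 windows of the 40 member genes that matched the promoter table, 25 held a CAAT box, 33 a GC box, 7 an E-box, 6 a TATA box, 3 an ETS-type site and 0 a cAMP response element, against 32.0%, 42.6%, 6.34%, 10.7%, 3.42% and 1.65% of all windows. A match is a run of letters and no evidence of binding.

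Among the hnRNPs, HNRNPL, which binds CA-rich RNA, was the most reduced. It read 567, 558 and 558 CPM in vehicle-treated parental cells, 566, 563 and 563 in oxamate-treated parental cells, 355, 357 and 357 in vehicle-treated resistant cells and 347, 346 and 349.8 in oxamate-treated resistant cells. No resistant library came near a parental one, and the log2 fold change was -0.66 ± 0.02, adjusted p = 1.6e-13 under vehicle. HNRNPA2B1, which binds UAG-containing RNA and sorts RNAs for transport, read 1754, 1753 and 1682 CPM in parental and 1230.3, 1226 and 1178 CPM in resistant cells under vehicle (log2 fold change -0.51 ± 0.026, adjusted p = 5.6e-11). HNRNPA1, the best-studied splicing silencer of the family, read 1751, 1726 and 1687 and 1502, 1505 and 1420.0 CPM (log2 fold change -0.22 ± 0.027, adjusted p = 1.4e-06), and this decrease was -0.003 with the library size alone (adjusted p = 0.90). HNRNPK, which binds C-rich RNA, read 747, 754 and 743 and 673, 671 and 656 CPM (log2 fold change -0.17 ± 0.021, adjusted p = 2.2e-06) and turned to 0.05 with the library size alone. HNRNPC, HNRNPA3 and HNRNPR had log2 fold changes of -0.41, -0.40 and -0.40, and the remaining called hnRNPs lay between -0.30 (HNRNPF) and -0.06 (HNRNPDL). Under all 4 scalings 6 of the 18 stayed lower. With the library size alone 9 of the 21 hnRNPs were called higher, against 58.6% of all genes.

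HNRNPA1L2, a retrocopy of HNRNPA1, was the only hnRNP called higher with vehicle after TMM scaling. It read 3.62, 3.67 and 3.94 CPM in vehicle-treated parental cells, 4.63, 4.80 and 3.56 in oxamate-treated parental cells, 5.48, 6.01 and 6.26 in vehicle-treated resistant cells and 6.85, 7.12 and 7.22 in oxamate-treated resistant cells, with a log2 fold change of 0.67 ± 0.093, adjusted p = 7.5e-06 under vehicle. Its coding sequence was 98.4% identical to that of HNRNPA1 in GENCODE release 29, with an identical run of 174 bases, longer than the 150-base reads, and HNRNPA1 was far higher, so the division of reads between the pair, and with it the level of HNRNPA1L2, is uncertain.

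PTBP1, which represses exons next to pyrimidine-rich sequence and is known, with HNRNPA1 and HNRNPA2B1, for setting the form of pyruvate kinase made in proliferating cells, was at 688, 672 and 671 CPM in vehicle-treated parental cells, 621, 614 and 635 in oxamate-treated parental cells, 442, 439 and 440.2 in vehicle-treated resistant cells and 404, 401 and 409.6 in oxamate-treated resistant cells. All resistant libraries were below all parental libraries, with a log2 fold change of -0.62 ± 0.022, adjusted p = 9.3e-13 under vehicle. Its paralog PTBP2, the neuronal form, which PTBP1 is known to repress through an exon whose skipping leads to decay, was at 4.98, 5.03 and 6.26 CPM in vehicle-treated parental cells, 3.36, 2.82 and 3.80 in oxamate-treated parental cells, 5.64, 6.63 and 6.81 in vehicle-treated resistant cells and 7.16, 7.24 and 7.22 in oxamate-treated resistant cells. Vehicle-treated groups overlapped, and the log2 fold change of 0.24 ± 0.1, adjusted p = 0.04 lost its call without parental vehicle replicate 1 or 2 or resistant vehicle replicate 2 or 3 (adjusted p between 0.115 and 0.156). The call was also lost without the 2 libraries rich in nuclear RNA (0.20, adjusted p = 0.074). PTBP1 had between 107 and 218 times the CPM of PTBP2 in parental and between 55.4 and 78.3 times in resistant libraries. PTBP3 was not called (log2 fold change 0.00). Of the SR-related proteins, SRRM1, a splicing coactivator, had a log2 fold change of -0.57 ± 0.041, adjusted p = 3e-09, and SRRM2, the large scaffold protein of nuclear speckles, read 411, 419 and 419.8 CPM in parental and 285, 278 and 352 CPM in resistant cells (log2 fold change -0.45 ± 0.089, adjusted p = 0.00027). TRA2B, which binds GAA-rich enhancers, read 59.1, 59.4 and 58.4 and 50.7, 50.9 and 52.7 CPM (log2 fold change -0.20 ± 0.028, adjusted p = 9.6e-06), a difference of 0.02 with the library size alone, and its paralog TRA2A did not pass the test.

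The same lines were then compared with oxamate in both. Of the 40 genes, 14 were called higher and 23 lower in resistant cells, against 40.6% and 39.7% of all genes (80.3% in either direction), and the median log2 fold change was -0.15, against 0.01 over all genes. With the library size alone, which moved the median of all genes by 0.32, 24 were higher and 11 lower, against 62.6% and 19.3% of all genes, and 14 higher and 11 lower calls stood under all 4 scalings. At the study's threshold 5 were higher and 5 lower, against 22.9% and 11.4% of all genes (34.3% in either direction), and the replicates did not overlap in 35 of 40, against 81.2%. SRSF5 (1.42 ± 0.13, adjusted p = 5.1e-08), SRSF6 (1.13 ± 0.091, adjusted p = 8.4e-09), PTBP2 (1.10 ± 0.11, adjusted p = 1.3e-07) and SRSF8 (1.05 ± 0.045, adjusted p = 3e-12) had the largest increases in log2 fold change. SRSF11 (-1.04 ± 0.033, adjusted p = 1.1e-13), SRSF4 (-0.95 ± 0.024, adjusted p = 7.8e-15) and HNRNPL (-0.70 ± 0.02, adjusted p = 3.6e-14) had the largest decreases. Without the 2 libraries rich in nuclear RNA the SRSF5 difference was 1.72, and all 37 calls remained. Other settings lost or turned calls. With the library size alone some lower calls became higher calls. These were HNRNPDL (0.15), HNRNPF (0.05), HNRNPH3 (0.10), HNRNPK (0.23), HNRNPU (0.17), HNRNPUL1 (0.18), SRSF3 (0.22) and SRSF7 (0.11). Of the 21 hnRNPs that scaling called 12 higher and 6 lower. SRSF1 lost its call with DESeq2 (adjusted p = 0.072) and on only the samples compared. It also lost it without parental oxamate replicate 1 or 2 or resistant oxamate replicate 1 or 3. SRSF2 was not called without parental oxamate replicate 1 or 2 or resistant oxamate replicate 3. SRRM2 lost its call with DESeq2 and upper-quartile factors, among other settings, and SRSF3 and HNRNPK with upper-quartile factors. Nuclear-retained RNA also differed between these groups: MALAT1 lay between 577 and 742 CPM in oxamate-treated resistant and between 281 and 596 CPM in oxamate-treated parental libraries, 3 of 4 nuclear-retained long noncoding RNAs were called higher in resistant cells in either medium, and their part in the differences between the lines was not tested.

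The 2 media use separate libraries of both lines. In both of them 23 genes were called lower in resistant cells after TMM scaling, against 32.2% of all genes. Another 5 were called higher in both (SRSF5, SRSF6, SRSF8, HNRNPA1L2 and PTBP2), against 32% of all genes, and the vehicle call of PTBP2 was lost in several settings. With the library size alone 10 were lower in both and 16 higher in both. That scaling called 58.6% of all genes higher and 19% lower with vehicle, and 62.6% and 19.3% with oxamate. After TMM scaling 4 changed side, HNRNPA0, HNRNPAB, HNRNPM and TRA2B, which were lower in resistant cells with vehicle and higher with oxamate, against 1.34% of all genes. None of these 4 kept its vehicle call with the library size alone, where HNRNPA0 (0.15) and HNRNPM (0.11) were called higher and HNRNPAB (-0.05) and TRA2B (0.02) were not called, and the vehicle call of HNRNPA0 was also lost without the 2 libraries rich in nuclear RNA. TRA2B read 49.1, 52.3 and 50.6 CPM in oxamate-treated parental and 59.7, 59.0 and 60.7 CPM in oxamate-treated resistant cells (log2 fold change 0.24 ± 0.029, adjusted p = 1.1e-06). HNRNPAB, which binds AU-rich RNA, read 178, 176 and 162 and 141, 148 and 139.7 CPM with vehicle and 111, 109 and 116 and 141, 136 and 138 CPM with oxamate in parental and resistant cells. The 3 oxamate-treated parental libraries held the lowest HNRNPAB levels of all 12.

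**Figure D2:**
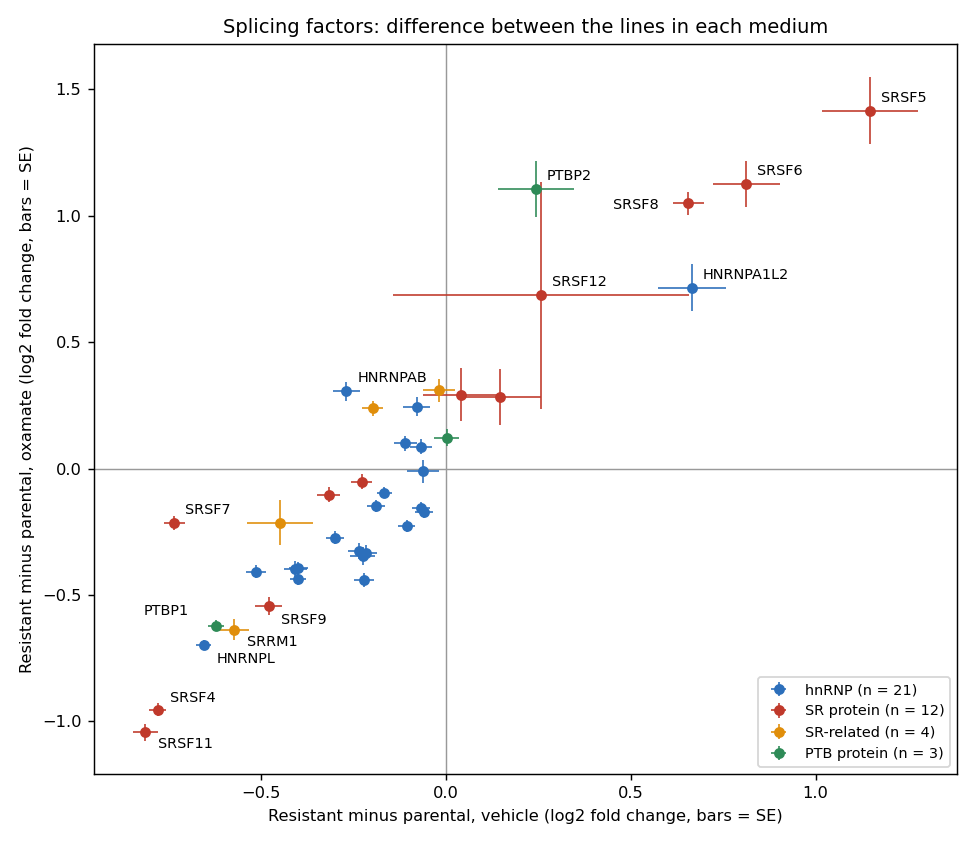
Log2 fold change between resistant and parental cells with vehicle (x axis) and with oxamate (y axis) of the 40 genes tested, coloured by class; bars are SE. After TMM scaling most hnRNPs lie at the lower left, SRSF5, SRSF6, SRSF8, HNRNPA1L2 and PTBP2 lie in the upper right, and SRSF4 and SRSF11 are the lowest on both axes.

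In parental cells, oxamate lowered PTBP2, HNRNPAB and SRSF7 the most and raised SRSF11, HNRNPA1 and HNRNPH1. Of the 40, 6 were called higher and 18 lower, against 28.3% and 30.4% of all genes; the share called in either direction (60%) was near the 58.7% of all genes. The median log2 fold change was -0.06, against 0.003 over all genes. At the study's threshold 0 were higher and 2 lower, PTBP2 and HNRNPAB, against 5.69% and 4.19% of all genes (9.88% in either direction), and the replicates did not overlap in 24 of 40, against 61.5%. Falls were largest in PTBP2 (-0.68 ± 0.11, adjusted p = 6.6e-05), HNRNPAB (-0.62 ± 0.037, adjusted p = 1.5e-09) and SRSF7 (-0.52 ± 0.028, adjusted p = 6.3e-10). HNRNPAB fell to 111, 109 and 116 CPM from 178, 176 and 162 CPM, with no overlap of replicates. The related HNRNPD, known as AUF1 for its part in the decay of AU-rich mRNAs, had a log2 fold change of -0.31, and all 3 polypyrimidine tract-binding proteins were called lower.

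Among called genes whose replicates did not overlap, SRSF11 rose the most in parental cells (0.29 ± 0.032, adjusted p = 1.2e-06), followed by HNRNPA1 (0.17 ± 0.027, adjusted p = 6.2e-05) and HNRNPH1 (0.16 ± 0.029, adjusted p = 0.00015), which binds G runs. HNRNPA1 stood at 1952, 1937 and 1902 CPM with oxamate, above all vehicle libraries, and HNRNPH1 read 270.3, 272 and 270.5 CPM with vehicle and 293, 301 and 317 CPM with oxamate. These 3 kept their call under all 4 scalings, and 3 of the 6 calls (HNRNPDL, HNRNPR and SRSF9) did not. HNRNPA2B1 read 1580.1, 1567 and 1581 CPM with oxamate (log2 fold change -0.13 ± 0.026, adjusted p = 0.00036) and HNRNPK read 681, 687 and 675 CPM (log2 fold change -0.14 ± 0.021, adjusted p = 3.8e-05), both below all vehicle libraries.

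The response of several SR proteins in parental cells rested on the third oxamate replicate. SRSF1, the founding SR protein, read 76.3, 81.4 and 78.8 CPM with vehicle and 67.0, 69.0 and 103 CPM with oxamate. Its first and second oxamate replicates lay below all vehicle libraries and the third lay above them, so that the log2 fold change of 0.02 ± 0.11, adjusted p = 0.87 became -0.21 without the 2 libraries rich in nuclear RNA. SRSF2, an SR protein concentrated in nuclear speckles, read 61.1, 62.2 and 61.2 CPM with vehicle and 56.6, 58.7 and 79.7 CPM with oxamate, and its log2 fold change went from 0.09 to -0.09. SRSF5 went from 0.02 to -0.29 and SRRM2, at 353, 379.5 and 459 CPM with oxamate, from -0.07 to -0.19. Without these libraries 7 genes were called higher and 22 lower, against 27% and 29.1% of all genes, and all 24 calls made with them remained. SRSF1, SRSF2, SRSF5, SRRM2 and HNRNPA1L2 were gained, of which HNRNPA1L2 was higher (log2 fold change 0.21 with and 0.34 without these libraries) and the others lower.

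**Figure D3:**
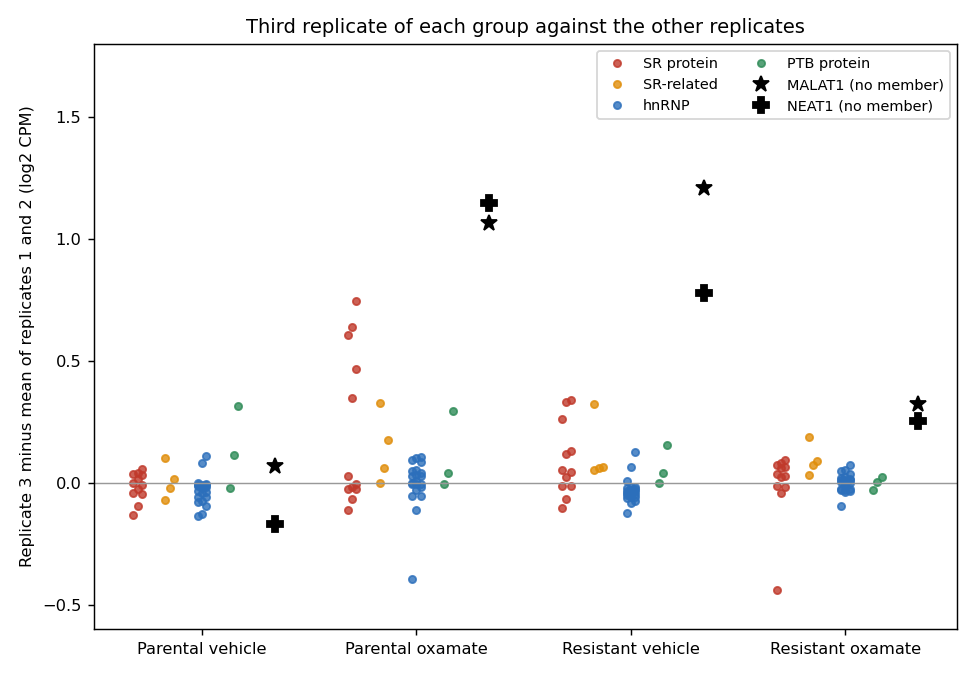
Difference of replicate 3 from the mean of replicates 1 and 2 (y axis, log2 CPM) in each group (x axis) for the 40 genes tested, coloured by class, and for MALAT1 (star) and NEAT1 (cross). SR proteins reach 0.74 in oxamate-treated parental cells, where most hnRNPs stay near 0.

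In that library, SRSF5 was 0.74, SRSF1 0.61, SRSF2 0.47, SRSF6 0.35 and SRRM2 0.33 log2 units above the mean of the other replicates of its group, while MALAT1 was 1.06 and NEAT1 1.15 above. In the third vehicle replicate of resistant cells SRSF6 was 0.34, SRSF2 0.33 and SRRM2 0.32 above, with MALAT1 1.21 and NEAT1 0.78 above, whereas SRSF1 was 0.12 above and SRSF5 0.10 below. Of the 21 hnRNPs, HNRNPA1L2 was 0.39 below in the parental library. Over 1.5-fold above were 3 of the 40 genes in that library (SRSF1, SRSF5 and the sparsely counted SRSF12), against 3.02% of all genes, and 0 in the third replicates of the other groups. All 4 nuclear-retained long noncoding RNAs on the list were called higher with oxamate in parental cells, and 1 of 4 in resistant cells. In resistant cells all 4 nonetheless had positive log2 fold changes, from 0.68 to 0.96, and all 4 were higher at the study's threshold. The part of nuclear RNA in these levels was not tested.

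In resistant cells, the genes raised by oxamate were mostly SR and SR-related proteins. Of the 40 genes 7 were called higher and 9 lower, against 9.01% and 12.5% of all genes (21.5% in either direction). The median log2 fold change was -0.01, against -2.06e-05 over all genes, and at the study's threshold 0 genes were higher and 0 lower, against 2.23% and 0.274% of all genes (2.5% in either direction). The replicates did not overlap in 23 of 40, against 41% of all genes. The genes called higher were 4 SR proteins, both TRA2 proteins and HNRNPM. With the library size alone 10 were higher and 6 lower, against 12% and 8.09% of all genes. Under all 4 scalings 6 higher and 6 lower calls stood, and the higher call of SRSF8 did not. The largest log2 fold changes were those of SRSF6 (0.43 ± 0.088, adjusted p = 0.0032), SRSF2 (0.34 ± 0.1, adjusted p = 0.031) and TRA2B (0.22 ± 0.029, adjusted p = 0.00012). SRSF2 read 58.5, 58.0 and 73.3 CPM with vehicle and 81.6, 75.6 and 82.6 CPM with oxamate, and its call was lost without resistant vehicle replicate 1 or 2 or resistant oxamate replicate 1 or 3 (adjusted p between 0.0869 and 0.133) and with DESeq2 (adjusted p = 0.0705). SRSF3 read 125, 128 and 131 and 143, 146 and 143 CPM (log2 fold change 0.17 ± 0.031, adjusted p = 0.0016). SRSF1 read 85.7, 83.9 and 92.1 and 99.3, 94.8 and 98.8 CPM (log2 fold change 0.16 ± 0.11, adjusted p = 0.31), without overlap of the replicates but not past the threshold. Nuclear-retained RNA differed in the same comparison, with MALAT1 at 273, 244 and 597 CPM with vehicle and 577, 609 and 742 CPM with oxamate. SRSF6 (79.8 against 64.0 and 62.1 CPM) and SRSF2 were likewise highest in the third vehicle replicate, whereas TRA2B stayed between 50.7 and 52.7 CPM with vehicle. The part of nuclear RNA in these rises was not tested.

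The genes called lower in resistant cells were small in effect. HNRNPH2 had -0.18 ± 0.045, adjusted p = 0.011 and lost its call without resistant vehicle replicate 1 or resistant oxamate replicate 1 (adjusted p = 0.0617 and 0.0577). HNRNPF had -0.17 ± 0.025, adjusted p = 0.00031 and SRSF4 -0.16 ± 0.024, adjusted p = 0.00047, all as log2 fold changes. HNRNPF read 319, 326 and 312 CPM with vehicle and 283, 289 and 279.8 CPM with oxamate, so its groups did not overlap. PTBP1 had -0.12 ± 0.022, adjusted p = 0.0017. HNRNPK had -0.06 ± 0.021, adjusted p = 0.037, and lost its call under the 3 other scalings (adjusted p up to 0.178), under both other filters on low counts, and without parental vehicle replicate 2, resistant vehicle replicate 1 or 2 or any 1 of the resistant oxamate replicates (adjusted p between 0.0505 and 0.128). Without resistant vehicle replicate 1 only 4 genes were called lower, and without replicate 2 of that group 5. The share of all genes called lower fell as well, from 12.5% to 7.93% and 7.61%. Without both libraries rich in nuclear RNA 12 were higher and 10 lower, against 12.9% and 16.5% of all genes, with SRSF1 (log2 fold change 0.20), SRSF5 (0.25) and SRRM2 (0.28) among those gained and SRSF8 lost. This setting left MALAT1 at 273 and 244 CPM with vehicle against 577, 609 and 742 CPM with oxamate. Whether the gained calls rest on that difference was not tested.

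**Figure D4:**
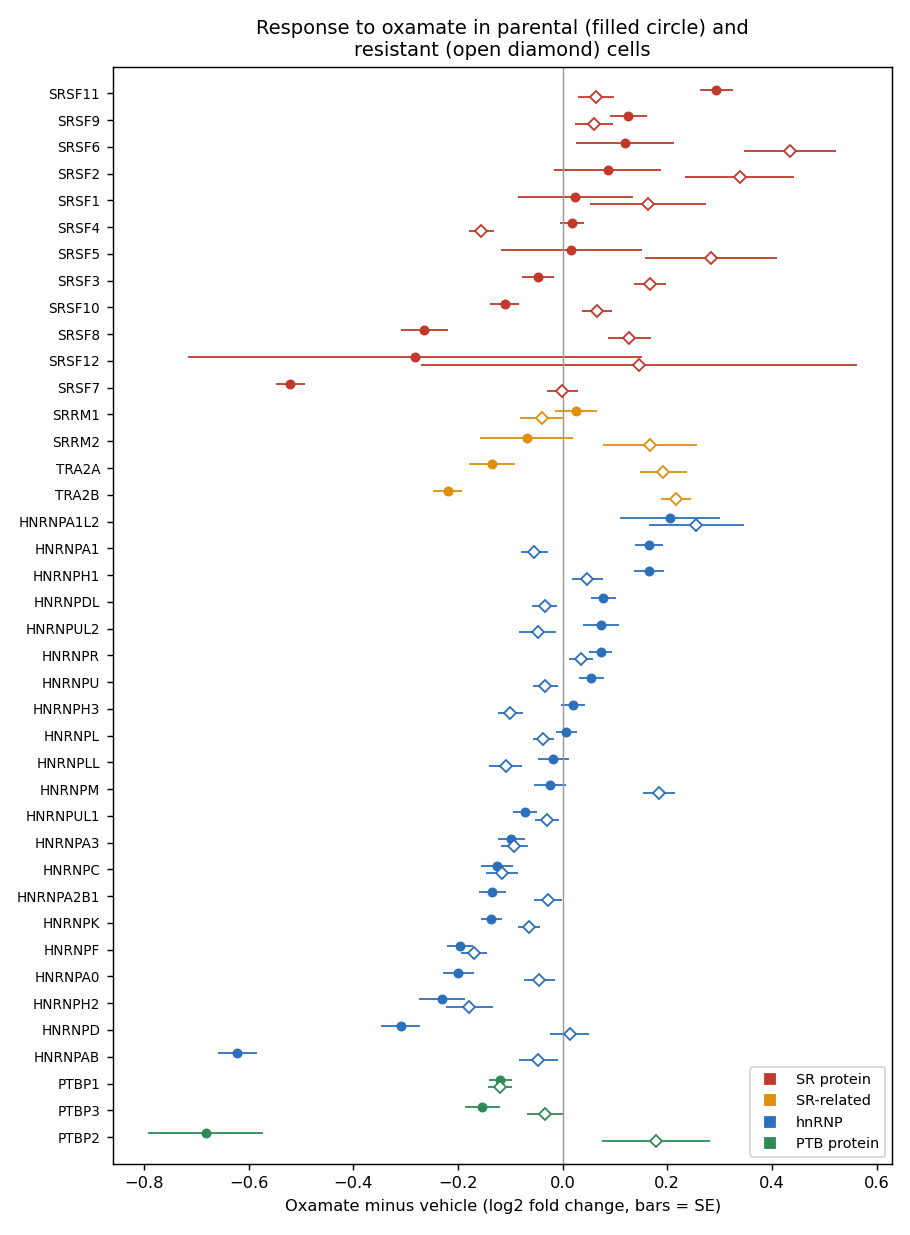
Log2 fold change with oxamate (x axis; bars, SE) of the 40 genes tested, in parental (filled circles) and resistant cells (open diamonds), ordered by class and by the parental value. TRA2A, TRA2B and SRSF8 lie on opposite sides of 0 in the lines, and SRSF7, HNRNPAB and PTBP2 have the lowest parental values.

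Whether the responses of the lines to oxamate differed was tested by the interaction of line and treatment. It passed in 12 of the 40 genes with a more positive response in resistant cells and in 6 with a more negative one, against 22.7% and 21.4% of all genes (44.2% in either direction). The median difference was 0.06 on the log2 scale, against -0.01 over all genes, and at the study's threshold 1 gene, PTBP2, was more positive and 0 more negative, against 5.54% and 2.94% of all genes (8.48% in either direction). The largest positive differences were those of PTBP2 (0.86 ± 0.15, adjusted p = 0.00025), HNRNPAB (0.57 ± 0.052, adjusted p = 4.3e-07) and SRSF7 (0.52 ± 0.041, adjusted p = 1.1e-07), all of which fell in parental cells and did not pass the test in resistant cells. TRA2B (0.44 ± 0.04, adjusted p = 5.4e-07), TRA2A (0.33 ± 0.063, adjusted p = 0.00055) and SRSF8 (0.39 ± 0.061, adjusted p = 8.9e-05) were called lower in parental and higher in resistant cells. The rise of SRSF8 in resistant cells did not keep its call under every scaling. It was also not called without the 2 libraries rich in nuclear RNA (0.12, adjusted p = 0.061). TRA2B moved from 59.1, 59.4 and 58.4 to 49.1, 52.3 and 50.6 CPM in parental cells and from 50.7, 50.9 and 52.7 to 59.7, 59.0 and 60.7 CPM in resistant cells, and neither pair of groups overlapped.

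Negative differences were smaller and were led by SRSF11 (-0.23 ± 0.047, adjusted p = 0.00086), HNRNPA1 (-0.22 ± 0.038, adjusted p = 0.0002) and SRSF4 (-0.17 ± 0.034, adjusted p = 0.0006). HNRNPA1 was the only one of the 6 that kept its call with the library size alone, which gave 20 positive and 1 negative, against 34.6% and 12% of all genes. Without the 2 libraries rich in nuclear RNA, 16 were positive and 6 negative, against 23.8% and 23.2% of all genes, and SRSF1 (0.42), SRSF2 (0.55), SRSF5 (0.54), SRSF6 (0.57) and SRRM2 (0.47) were gained with a more positive response in resistant cells and HNRNPLL (-0.12) with a more negative one. MALAT1 then read 273 and 244 CPM with vehicle and 577, 609 and 742 CPM with oxamate in resistant cells. In parental cells it read 183, 198 and 199 CPM with vehicle and 289 and 281 CPM with oxamate. The part of nuclear RNA in the gained differences was not tested.

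Transcripts that end in decay were annotated for most of these genes. In GENCODE release 29, 30 of the 44 genes (68.2%) had at least 1 transcript classed as subject to nonsense-mediated decay, against 35.7% of 19936 protein-coding genes, and 28 (63.6%) had a transcript with a retained intron, against 46.2%. They also had more annotated transcripts, with a median of 11 against 6. The counts hold all transcripts of a gene as 1 value, so a change in coding mRNA and a change in such transcripts cannot be told apart here.

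Kinases of SR proteins were given as a companion list of 9 genes, of which 8 passed the filter on low counts. In resistant cells 2 were called higher and 5 lower with vehicle, and 3 higher and 5 lower with oxamate (3 and 4, and 4 and 3, with the library size alone). Over all genes 38.4% were higher and 37.3% lower with vehicle, and 40.6% and 39.7% with oxamate. With the library size alone the shares of all genes were 58.6% and 19%, and 62.6% and 19.3%. Oxamate gave 3 higher and 3 lower in parental cells and 1 higher and 4 lower in resistant cells (2 and 3, and 1 and 2, with the library size alone). Of all genes oxamate gave 28.3% higher and 30.4% lower in parental and 9.01% and 12.5% in resistant cells. These shares were 19.6% and 40.6%, and 12% and 8.09%, with the library size alone. CLK1, a nuclear kinase that releases SR proteins from speckles, had the smallest p of the list in every comparison. It read 68.9, 73.4 and 75.1 CPM in vehicle-treated parental cells, 99.0, 102 and 102 in oxamate-treated parental cells, 39.7, 38.3 and 41.6 in vehicle-treated resistant cells and 28.8, 28.2 and 28.7 in oxamate-treated resistant cells, with no overlap between any groups. It rose with oxamate in parental cells (0.48 ± 0.033, adjusted p = 9.1e-09) and fell in resistant cells (-0.48 ± 0.039, adjusted p = 6.9e-07), and the responses differed by -0.96 ± 0.051, adjusted p = 2.5e-09. Between the lines its log2 fold change was -0.86 with vehicle and -1.82 with oxamate. CLK4 was also called higher in parental (0.14) and lower in resistant cells (-0.50), as was CLK3 (0.34 and -0.10), but with the library size alone the rise of CLK4 (0.07) and the fall of CLK3 (-0.07) were not called. DYRK1A moved the opposite way, with -0.52 and 0.11, and was higher in resistant cells in both media. SRPK1, the cytoplasmic kinase that sends SR proteins into the nucleus, read 126, 127 and 133 CPM in vehicle-treated parental and 133, 135 and 129 CPM in vehicle-treated resistant cells (log2 fold change 0.04 ± 0.027, adjusted p = 0.17). It was called higher in resistant cells with upper-quartile factors (0.12), with the library size alone (0.26), at a mean count of at least 25 (0.06) and without parental vehicle replicate 3 (0.07). CLK3, CLK4, DYRK1A and SRPK2 lie outside the rule for named genes and were chosen after their values were seen.

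**Figure D5:**
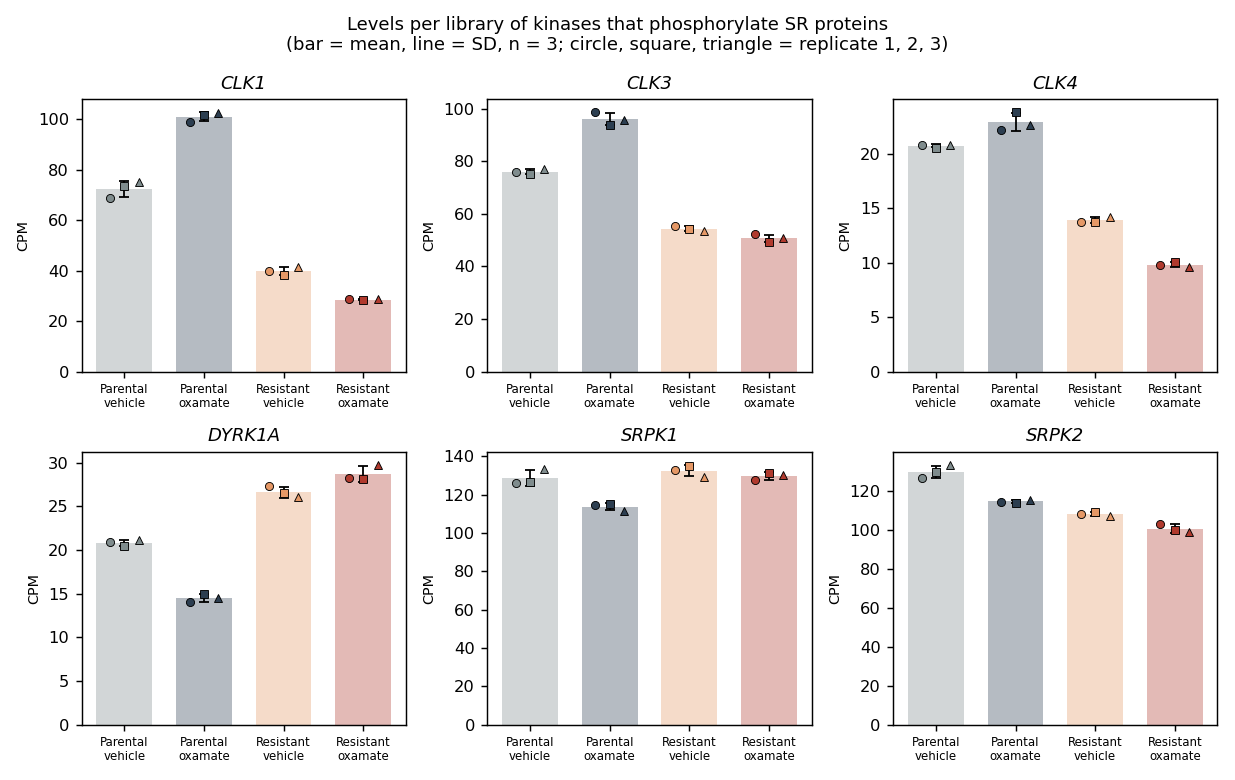
Level of 6 kinases of SR proteins in each of the 12 libraries (y axis, CPM; bars, mean; lines, SD; symbols, replicates), by group on the x axis. CLK1, CLK3 and CLK4 are higher with oxamate in parental cells and lower with oxamate in resistant cells, DYRK1A shows the opposite, and SRPK1 and SRPK2 vary less.

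Among core components of the spliceosome, the Sm proteins were lower in resistant cells. All 8 Sm proteins, which form the ring of the small nuclear ribonucleoproteins, were called lower with either medium (median log2 fold change -0.56 with vehicle and -0.50 with oxamate), and 7 of 8 with the library size alone in each. For this and the next 2 lists, 38.4% of all genes were higher and 37.3% lower with vehicle, and 40.6% and 39.7% with oxamate. With the library size alone the shares of all genes were 58.6% and 19%, and 62.6% and 19.3%. SNRPG led with vehicle (-0.74 ± 0.036, adjusted p = 3.5e-11) and SNRPD2 with oxamate (-0.66 ± 0.038, adjusted p = 9.5e-11). Among 19 components of the U1 and U2 particles and branch site factors, 1 was higher and 17 lower with vehicle, and 2 higher and 15 lower with oxamate, or 3 higher and 14 lower and 6 higher and 9 lower with the library size alone. SF3B2 had the smallest p in both (-0.60 and -0.84). SF3B1, the branch site factor often mutated in blood cancers, read 459, 464 and 478 CPM in parental and 347, 341 and 357 CPM in resistant cells (log2 fold change -0.42 ± 0.024, adjusted p = 1.9e-10), and U2AF2, which binds the polypyrimidine tract, had -0.40 ± 0.03, adjusted p = 5.1e-09. Of 13 proteins of the U4/U6.U5 particle, 1 was higher and 11 lower with vehicle and 3 higher and 9 lower with oxamate, with USP39 (-0.50) and PRPF6 (0.87) at the smallest p; with the library size alone this became 3 higher and 6 lower, and 7 higher and 3 lower.

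With oxamate, 58.7% of all genes were called in parental and 21.5% in resistant cells. The shares were 75% and 12.5% of the Sm proteins, 47.4% and 21.1% of the U1 and U2 components and 53.8% and 23.1% of the U4/U6.U5 proteins. In parental cells 1 of 8 Sm proteins was higher and 5 lower (SNRPD1, -0.21), 2 of 19 U1 and U2 components were higher and 7 lower (SF1, -0.33), and 0 of 13 proteins of the U4/U6.U5 particle were higher and 7 lower (PRPF4, -0.51), or 1 and 6, 1 and 13, and 0 and 9 with the library size alone. In resistant cells the counts were 0 and 1 (SNRPE, -0.11), 0 and 4 (SF3B6, -0.13) and 1 and 2 (PRPF6, 0.16), or 1 and 0, 1 and 2, and 2 and 1 with the library size alone. That scaling gave 19.6% of all genes higher and 40.6% lower in parental and 12% and 8.09% in resistant cells. The SNRPE call was lost with upper-quartile factors and the library size alone (adjusted p = 0.0849 and 0.0868) and without parental vehicle replicate 2, resistant vehicle replicate 2 or resistant oxamate replicate 2 or 3 (adjusted p between 0.0504 and 0.177). The differences between the responses were led by SNRPN (-0.25), SF1 (0.35) and PRPF6 (0.46).

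Of 29 other regulators of alternative splicing that passed the filter, 4 were higher and 15 lower in resistant cells with vehicle, and 9 higher and 15 lower with oxamate, which became 14 higher and 8 lower, and 19 higher and 7 lower, with the library size alone. Over all genes 38.4% were higher and 37.3% lower with vehicle, and 40.6% and 39.7% with oxamate. With the library size alone the shares of all genes were 58.6% and 19%, and 62.6% and 19.3%. In either direction 65.5% and 82.8% of the 29 were called, against 75.7% and 80.3% of all genes. Oxamate gave 6 higher and 10 lower in parental and 5 higher and 2 lower in resistant cells (4 and 12, and 6 and 1, with the library size alone), and TIAL1 had the smallest p in the latter (-0.15). Over all genes oxamate gave 28.3% higher and 30.4% lower in parental and 9.01% and 12.5% in resistant cells. With the library size alone the shares of all genes were 19.6% and 40.6%, and 12% and 8.09%. RBM39 had the smallest p with vehicle (-0.61 ± 0.03, adjusted p = 4e-11) and RBM5, an RNA-binding protein that regulates splicing of cell death genes, with oxamate (2.01 ± 0.075, adjusted p = 6.1e-13). RBM5 read 15.5, 16.3 and 15.2 CPM in vehicle-treated parental cells, 9.85, 10.5 and 13.2 in oxamate-treated parental cells, 37.9, 37.0 and 40.6 in vehicle-treated resistant cells and 45.3, 43.5 and 47.0 in oxamate-treated resistant cells. Its resistant libraries were above all parental libraries with either medium. SON, a scaffold of nuclear speckles, had the smallest p in parental cells with oxamate (-0.41 ± 0.043, adjusted p = 7.1e-07), and EWSR1, an RNA-binding protein whose gene is rearranged in Ewing sarcoma, had it in the difference between responses (0.37 ± 0.041, adjusted p = 3.5e-06). Among 9 nonsense-mediated decay factors, 4 were higher and 2 lower with vehicle, and 4 higher and 3 lower with oxamate (7 higher and 1 lower, and 9 higher and 0 lower, with the library size alone). In either direction 66.7% and 77.8% of them were called, against 75.7% and 80.3% of all genes. Oxamate gave 1 higher and 3 lower in parental cells (0 and 5 with the library size alone). In resistant cells edgeR called 0 of the 9, with 3 at an unadjusted p under 0.05, and DESeq2 and limma-voom called 0. With the library size alone 2 were called higher there, and without the 2 libraries rich in nuclear RNA 1 was. SMG6, the endonuclease of that pathway, had the smallest p (0.07 ± 0.028, adjusted p = 0.088) and was called with upper-quartile factors (0.09) and the library size alone (0.10). UPF1, the helicase at the centre of that pathway, had a log2 fold change of -0.50 ± 0.027, adjusted p = 1.2e-10 with vehicle. SMG8 had log2 fold changes of -0.67 ± 0.037 with oxamate in parental cells and 1.11 ± 0.038 between the lines with oxamate, with a difference between responses of 0.75.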

How the data were processed

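RNA was sequenced from 12 libraries, 3 per group. Per the study's methods, mRNA was enriched with oligo(dT), NEBNext libraries were read as 2 × 150 bp on 2 lanes, and the submitters' processing notes name Bowtie2 2.1.0, RSEM 1.2.15 and hg38. The authors deposited expected counts from RSEM per gene symbol, without normalization, of which 11.6% were not whole numbers. The methods also describe STAR with featureCounts, whose whole-number counts these are not. RSEM divides reads that match several genes, so levels of near-identical copies are uncertain.

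After rounding, edgeR 4.0.16 in R 4.3.3 was used (default filterByExpr, TMM, glmQLFit and glmQLFTest on 4 group means over all 12 libraries), with Benjamini-Hochberg adjustment over 14582 genes. CPM are on TMM-scaled library sizes, and 3 counts equal 0.0283 to 0.0581 CPM. The difference between responses was the interaction in that fit. The tests were tried on simulated data. No label says that replicates were separate cultures, so p-values measure the spread between these libraries, which may be technical. No replicate pair within a group agreed within sampling noise.

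The genes and the companion lists were chosen with earlier results of these data known. Genes named with values were, per comparison, the 3 with the largest and the 3 with the smallest log2 fold change among called genes whose replicates did not overlap (for the difference between responses, called genes), and SRSF1, SRSF2, SRSF3, TRA2B, SRRM2, HNRNPA1, HNRNPA2B1, HNRNPK, PTBP1 and PTBP2; of each companion list, the gene with the smallest p and CLK1, SRPK1, SF3B1 and U2AF2. Of the companion lists, 2 genes are not reported here and are left out of the counts. Other members given with a value were singled out after their values were seen. Annotation came from GENCODE release 29, and promoters from RefSeq (GRCh38.p14), in which 40 of 44 genes matched.

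Alternatives were RLE, upper-quartile and library-size scaling, genes unfiltered or with a mean of 25 counts or more, DESeq2 1.42.0, limma-voom (limma 3.58.1), only the samples compared, a replicate block, the study's threshold, each library left out in turn, and the 2 libraries rich in nuclear RNA left out together.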

Additional observations from a re-analysis of the deposited data

Results flagged for a closer look

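These values are the difference between the responses to oxamate, resistant minus parental, on the log2 scale, at an adjusted p under 0.05 in edgeR's test of that difference. Among the SR and SR-related genes they were 0.52 for SRSF7, 0.44 for TRA2B, 0.39 for SRSF8, 0.33 for TRA2A, 0.21 for SRSF3, 0.18 for SRSF10, -0.17 for SRSF4 and -0.23 for SRSF11. Among the hnRNPs they were 0.57 for HNRNPAB, 0.32 for HNRNPD, 0.21 for HNRNPM, 0.15 for HNRNPA0, 0.11 for HNRNPA2B1, -0.11 for HNRNPDL, -0.12 for HNRNPH1, -0.12 for HNRNPH3 and -0.22 for HNRNPA1. PTBP2 had the largest difference of the 40 genes, 0.86. In the companion lists the named genes had differences of -0.96 for CLK1, 0.75 for SMG8, 0.46 for PRPF6, 0.37 for EWSR1, 0.35 for SF1, -0.25 for SNRPN and 0.15 for SRPK1. With the library size alone 1 of the 6 negative differences of member genes was still called, that of HNRNPA1, and without the 2 libraries rich in nuclear RNA those of HNRNPA2B1 and HNRNPH1 were lost. The HNRNPA2B1 difference was also not called on unfiltered genes (adjusted p = 0.0505). It was lost too without parental vehicle replicate 1 or 2, parental oxamate replicate 2, resistant vehicle replicate 3 or resistant oxamate replicate 1 (adjusted p between 0.0559 and 0.0877).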

How the results depend on the processing

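Over 22 alternatives, 2460 of 2573 values of single genes kept their side of the threshold and, where called, their direction. Of the others 64 lost and 39 gained a call in the same direction, and 10 changed direction with a call in either setting. Changes of direction between values not called in both settings were not counted as changes. At the study's threshold the counts higher and lower were 0 and 2 (parental oxamate), 0 and 0 (resistant oxamate), 4 and 5 (between lines, vehicle), 5 and 5 (between lines, oxamate) and 1 and 0 (difference between responses). With the library size alone 3, 16, 24 and 20 were higher in parental oxamate, between the lines with vehicle, with oxamate and in the difference between responses, 14, 11 and 1 were lower in the last 3, and the 5 medians were -0.132, 0.0166, 0.0123, 0.173 and 0.167. Of all genes that scaling called 19.6%, 58.6%, 62.6% and 34.6% higher, and 19%, 19.3% and 12% lower in the last 3. Among the single-gene values counted above, it changed direction for SF3B1 in parental oxamate (-0.00618). Between lines with vehicle it did so for TRA2B (0.0214) and HNRNPK (0.0530). With oxamate it did so for SRSF3 (0.22), SRRM2 (0.11) and HNRNPK (0.23), and in the difference for PTBP1 (0.10). Upper-quartile medians were -0.0443, 0.00951, -0.131 and -0.0651, those at a mean count of at least 25 were -0.0409 (parental oxamate) and -0.133 (between lines, oxamate), and that on only the samples compared was -0.127 (between lines, oxamate). Without the 2 libraries rich in nuclear RNA the medians were -0.100 (parental oxamate) and 0.0390 (difference), 12 genes were higher in resistant oxamate, and SRSF1 (-0.21) and SRSF2 (-0.0931) turned in parental oxamate. With each library left out in turn, SRSF1 in parental oxamate ran from -0.21 (without replicate 3) to 0.14, the lower calls in resistant oxamate from 4 to 10, and the medians from -0.101 to -0.0212 (parental oxamate), -0.0199 to 0.00475 (resistant oxamate), -0.165 to -0.135 (between lines, oxamate) and 0.0416 to 0.0817 (difference). Where 4 and 10 genes were called lower in resistant oxamate, 7.93% and 13.4% of all genes were. Same-numbered libraries were not treated as pairs: 6 of 18 correlations of their deviations exceeded 0.1 (range -0.10 to 0.37). A replicate block gave 7 higher and 18 lower, 8 and 10, 5 and 28, 14 and 23, and 17 and 7 in the same order. The shares of all genes were then 29.3% and 31.2%, 11.1% and 14.6%, 38.9% and 37.7%, 41.1% and 39.9%, and 23.8% and 22.9%. Causes other than the construction of each alternative were not tested. Depth limits SRSF12, with 2 to 21 counts, and the HNRNPCL genes.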
